A study of Mus musculus with 13 samples.

Results

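Glutathione is the most abundant small thiol of animal cells, and 9 genes of its synthesis, recycling and cystine uptake were followed in mouse embryonic fibroblasts that were cooled or kept warm. The genes were taken by name: Gclc, Gclm and Gss for synthesis, Gsr for recycling, Slc7a11 and Slc3a2 for cystine uptake, Ggct and Oplah for the gamma-glutamyl cycle and Abcc1 for export. All 9 of 9 had a transcript cluster of their own on the array (the probe group that the array design assigns to a gene), out of 19938 genes tested. The cells were primary fibroblasts, connective tissue cells from mouse embryos, seeded on dishes and grown at 37°C until the dishes were largely covered. Neither the strain nor the age of the embryos is given in the labels. The hypothermia group was then moved to 32°C by lowering the incubator temperature, the normothermia group stayed at 37°C, and no other agent was applied to either. RNA was taken at 0 h (normothermia) and after 0.5, 1, 2, 4, 8 and 18 h at each temperature. RNA of 3 dishes was pooled for each of the 13 arrays, so each temperature and time is 1 array, there are no replicate arrays, and a change in a part of the cells cannot be told apart from a change in all of them. All values below are log2 of the deposited intensity unless stated. Because probes differ in brightness, levels of different genes are not ranked against each other, and apart from counts of genes above the median signal of the array the values are compared within a gene.

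Glutathione is made from glutamate, cysteine and glycine by glutamate-cysteine ligase (catalytic subunit Gclc, modifier subunit Gclm), the rate-limiting step, followed by glutathione synthetase (Gss). Cysteine enters most cultured cells as its oxidized dimer, cystine, through the exchanger built of the light chain Slc7a11 and the heavy chain Slc3a2, and glutathione reductase (Gsr) turns oxidized glutathione back to its reduced form with NADPH. Gclc, Gclm, Gsr and Slc7a11 are known targets of NRF2, the transcription factor of the antioxidant response, and Slc7a11 and Chac1, an enzyme that degrades glutathione, are known targets of ATF4, which acts when amino acids run short.

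The promoters of 5 members were searched for the core letters of the elements that these factors are known to bind, because several members were higher at 32°C at the same late times. Sequences are from RefSeq (build GRCm38.p6) and cover 250 bases before to 50 bases after the start site. The letters TGACNNNGC (core of the antioxidant response element, N for any base) were found on either strand in 12.4% of 32851 promoters of 27025 genes, and the letters TGATGNAA (core of the amino acid response element) in 3.97%. Gclm held the antioxidant core on the opposite strand, from -134 to -126 relative to the start site. Ggct held it on the opposite strand from -174 to -166 and again after the start site, from 6 to 14. Slc7a11 held the amino acid core on its own strand from -66 to -59 and on the opposite strand from -47 to -40, and Chac1, no member but a gene of glutathione breakdown, held it on the opposite strand from -193 to -186. Of the NRF2 targets outside the pathway that the study named, Srxn1 held the antioxidant core after the start site, from 29 to 37, and Txnrd1 in 1 of 3 promoters, from -92 to -84. The windows of Gss and Slc3a2 among the members, and of Nqo1 and Txnrd3, held neither, which says no more than that these letters are not in these windows. The 250 bases before the start site are shown for the 3 members with a match and for Chac1, 5′ to 3′ on the gene's strand, with the matched letters in capitals. In these 4 no match of either core overlapped another.
Slc7a11, chr3:50443614-50443863, minus strand: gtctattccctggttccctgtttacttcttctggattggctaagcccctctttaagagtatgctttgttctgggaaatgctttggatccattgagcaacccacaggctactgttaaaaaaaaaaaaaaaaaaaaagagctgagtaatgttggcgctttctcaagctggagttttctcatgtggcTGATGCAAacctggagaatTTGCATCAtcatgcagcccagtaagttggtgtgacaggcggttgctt
Chac1, chr2:119350992-119351241, plus strand: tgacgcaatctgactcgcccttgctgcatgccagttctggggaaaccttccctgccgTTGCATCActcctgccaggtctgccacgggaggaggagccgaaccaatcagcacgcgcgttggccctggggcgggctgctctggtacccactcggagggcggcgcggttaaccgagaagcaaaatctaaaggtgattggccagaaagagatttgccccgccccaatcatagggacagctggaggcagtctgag
Gclm, chr3:122245307-122245556, plus strand: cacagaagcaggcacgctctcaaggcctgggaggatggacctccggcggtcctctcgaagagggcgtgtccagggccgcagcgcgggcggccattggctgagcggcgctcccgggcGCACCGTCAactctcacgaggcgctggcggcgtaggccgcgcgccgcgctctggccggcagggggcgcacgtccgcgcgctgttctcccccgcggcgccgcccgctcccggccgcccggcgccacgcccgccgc
Ggct, chr6:54992868-54993117, minus strand: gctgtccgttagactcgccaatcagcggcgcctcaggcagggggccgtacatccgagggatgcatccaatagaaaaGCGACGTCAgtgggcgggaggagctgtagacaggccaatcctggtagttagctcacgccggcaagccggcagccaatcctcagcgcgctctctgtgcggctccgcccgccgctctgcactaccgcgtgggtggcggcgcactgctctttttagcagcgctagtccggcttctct
For Gclc, Gsr, Oplah and Abcc1 the source used held no promoter, so these were not searched. Gclc and Gsr, whose divergence passed, are thus without promoter data here. The 5 members searched were those with a sequence. A match is a description of the sequence and was not tested as a site of binding.

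The median intensity of the 13 arrays lay between 145 and 149.8, and the mean correlation of an array with the others lay between 0.9951 and 0.9975. A correlation over all genes mostly reflects differences in brightness between genes. These measures would therefore hardly show a single deviating array. Cirbp, the cold-induced RNA-binding protein used here as a control of the cooling, stood at 8.48 at 0 h and rose to 10.34 at 18 h at 32°C (slope 0.34 per time point, SE 0.020, limma adjusted p = 3.11e-04), while it lay between 8.41 and 8.80 at 37°C. Rbm3, another cold-induced RNA-binding protein and the other control, stood at 13.15 at 0 h and lay between 13.11 and 13.32 at 32°C and between 13.10 and 13.17 at 37°C, and it did not pass (slope at 32°C 0.024, SE 0.015, limma adjusted p = 0.440; divergence 0.022, SE 0.011, limma adjusted p = 0.339). The study lists quantitative PCR assays for Cirbp and Rbm3, and PCR values were not part of the data used here. Of 10 fibroblast markers, 10 were above the median signal of all transcript clusters, 7.21 on the log2 scale, while 0 of 7 macrophage, 0 of 6 endothelial and 0 of 2 measured erythroid markers were. Of the markers of epithelium, skeletal muscle and neural cells, 2 of 6, 3 of 6 and 1 of 5 were above it.

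From the common start at 0 h, the courses of Gclc and Gsr at 32°C separated upward from those at 37°C, and no member's course separated downward. The divergence is the log2 difference between 32°C and 37°C per step of time order, fitted with time as a block as a line through 0 at 0 h; it also takes in a difference that stays level after 0 h. With limma and a Benjamini-Hochberg adjusted p under 0.05 over all genes, 2 of 9 members passed upward, against 1.17% of all genes. At an unadjusted p under 0.05 there were 6 of 9 (Gclc, Gclm, Gss, Gsr, Slc7a11 and Slc3a2), against 8.52% of all genes. The median divergence of the 9 members was 0.036 per time point, and that of all genes was 0.002. The study named Gclc and Gss from these very arrays, so their direction is not independent evidence. The study also ran quantitative PCR for Gclc and Gss and reported that it bore out the array results. Those PCR values were not part of the data used here.

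Gclc, the catalytic subunit of the ligase, stood at 10.14 at 0 h and, at 37°C, at 10.13, 10.26, 10.38, 10.44, 10.22 and 10.10 at 0.5, 1, 2, 4, 8 and 18 h. At the same times at 32°C it stood at 10.13, 10.28, 10.44, 10.68, 10.70 and 10.43. The courses coincided up to 1 h, both were higher than at 0 h from 1 to 4 h, and at 37°C the level then returned to that of 0 h while at 32°C it stayed above it. The log2 difference over 4, 8 and 18 h averaged 0.35 (SD 0.12, n = 3 pairs), or 1.27-fold, with the widest gap at 8 h, 1.39-fold. Its divergence was 0.061 per time point (SE 0.013, limma adjusted p = 0.0365). That call was lost without the time points 0.5, 4, 8 or 18 h (adjusted p = 0.0547, 0.0981, 0.191 and 0.110) and with a separate level term for 32°C (0.218), with divergences of 0.048 to 0.092 in these fits. It was also lost on relative ranks (0.0849).

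Gclm, the modifier subunit, which raises the affinity of the ligase for glutamate and carries the antioxidant core shown above, stayed within a narrower band. It stood at 10.93 at 0 h and, at 37°C, at 10.98, 10.94, 10.95, 11.02, 10.86 and 10.70 from 0.5 to 18 h. At 32°C it stood at 10.85, 10.87, 10.99, 11.05, 11.19 and 10.95. The 32°C arrays were below their partners at 0.5 and 1 h and above them at the 4 later times, and the 6 arrays of each temperature overlapped. Its mean difference over 4, 8 and 18 h was 0.21 (SD 0.15, n = 3 pairs), its divergence was 0.035 per time point (SE 0.014, limma adjusted p = 0.215), and it did not pass.

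Gss, the synthetase of the last step, was the member whose order of levels came nearest to that of time. It stood at 10.05 at 0 h and, at 32°C, at 10.23, 10.10, 10.32, 10.36, 10.50 and 10.55 from 0.5 to 18 h. At 37°C it stood at 10.07, 10.15, 10.18, 10.30, 10.38 and 10.17, so it also lay above 0 h in every later array there. At 18 h its level was 1.41-fold of that at 0 h at 32°C and 1.09-fold at 37°C. Kendall's tau with time was 0.90 at 32°C (exact 1-sided p = 0.00139, 7 arrays) and 0.71 at 37°C (exact 1-sided p = 0.0151, 7 arrays). The study used the same statistic on single probes and then tested each gene for an excess of monotone probes. Here tau was computed on the 1 value of the transcript cluster in each array. The slope at 32°C was 0.082 per time point (SE 0.016, limma adjusted p = 0.0684) and that at 37°C 0.041 (SE 0.015, adjusted p = 0.830). The slope at 32°C passed when time was taken as log2(1 + hours) (adjusted p = 0.0395) or when genes under the median signal were left out (0.0467). Between temperatures Gss differed by 0.38 at 18 h and by -0.05 to 0.16 at the other times, and its divergence of 0.039 (SE 0.013, limma adjusted p = 0.137) did not pass.

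Gsr, the reductase, was higher at 32°C in 6 of 6 pairs of arrays, and its lowest array at 32°C lay above its highest at 37°C of the same hours. It stood at 9.83 at 0 h and, at 32°C, at 9.90, 9.88, 9.96, 9.85, 9.91 and 10.08 from 0.5 to 18 h. At 37°C it stood at 9.81, 9.81, 9.83, 9.54, 9.62 and 9.75. The 32°C series thus stayed close to 0 h until 8 h, and the gap opened at 4 h, where the 37°C array was at its lowest. The differences at 4, 8 and 18 h were 0.31, 0.29 and 0.33 (mean 0.31, SD 0.02, n = 3 pairs, 1.24-fold). The divergence was 0.058 per time point (SE 0.011, limma adjusted p = 0.0221). It was lost without the time points 4, 8 or 18 h (adjusted p = 0.0829, 0.111 and 0.0832) and with a separate level term for 32°C (0.337), and its value lay between 0.054 and 0.060 in these fits.

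Slc7a11, the light chain that carries cystine and that holds the amino acid core on both strands, had the widest range of the members, 1.24 on the log2 scale over the 13 arrays. It stood at 7.68 at 0 h and, at 32°C, at 7.44, 7.57, 8.26, 8.08, 8.39 and 7.89 from 0.5 to 18 h. At 37°C it stood at 7.56, 7.83, 7.76, 7.77, 7.15 and 7.44. The 32°C arrays were the lower at 0.5 and 1 h and the higher from 2 h on, and the gap was widest at 8 h, 2.36-fold, where the 37°C array was the lowest of all. The log2 difference over 4, 8 and 18 h averaged 0.67 (SD 0.50, n = 3 pairs), or 1.59-fold, and without the pair at 8 h it was 0.39. Its divergence was the largest of the members, 0.12 per time point, with the largest error (SE 0.031, limma adjusted p = 0.0616). It missed the threshold here and passed with an intensity trend in the variance prior (adjusted p = 0.0398), with genes under the median signal left out (0.0436) or without the 1 h arrays (0.0337). Without the 8 h arrays the divergence was 0.074 (adjusted p = 0.231), and with a separate level term for 32°C it was 0.20 (adjusted p = 0.266).

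Slc3a2, the heavy chain that brings Slc7a11 and other light chains to the membrane, was higher at 32°C in 6 of 6 pairs. It stood at 12.48 at 0 h and, at 32°C, at 12.56, 12.60, 12.56, 12.59, 12.57 and 12.57 from 0.5 to 18 h. At 37°C it stood at 12.55, 12.52, 12.42, 12.40, 12.31 and 12.48. The cooled arrays were nearly level while the warm ones dipped to 8 h, and the lowest array at 32°C lay above the highest at 37°C. The whole range was 0.29, the mean late difference was 0.18 (SD 0.08, n = 3 pairs, 1.14-fold), and the divergence of 0.036 (SE 0.011, limma adjusted p = 0.119) passed when the variance prior followed intensity (adjusted p = 0.0189). It did not pass under the other alternatives, where the adjusted p reached 0.656 with a separate level term for 32°C.

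Ggct, which releases 5-oxoproline from gamma-glutamyl amino acids, Oplah, which opens 5-oxoproline to glutamate, and Abcc1, an export pump for glutathione and its conjugates, gave no divergence that passed. Ggct lay between 6.85 and 7.08 at 32°C and between 6.81 and 7.07 at 37°C, and its differences between temperatures ran from -0.16 at 4 h to 0.04. Its promoter holds the antioxidant core in 2 places, and its divergence was -0.0043 per time point (SE 0.011, limma adjusted p = 0.885). Oplah lay between 6.90 and 7.19 at 32°C and between 6.84 and 7.05 at 37°C, higher when cold at 0.5, 1 and 4 h and lower at 2, 8 and 18 h. Abcc1 lay between 10.61 and 10.87 at 32°C and between 10.51 and 10.78 at 37°C, with differences of 0.20 at 0.5 h, -0.13 at 2 h and 0.19 at 18 h. The divergence of Oplah was 0.0033 (SE 0.016, limma adjusted p = 0.940) and that of Abcc1 0.010 (SE 0.014, limma adjusted p = 0.752). Ggct and Oplah, with means of 6.97 and 7.01, were the members under the median signal of 7.21.

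**Figure D1:**
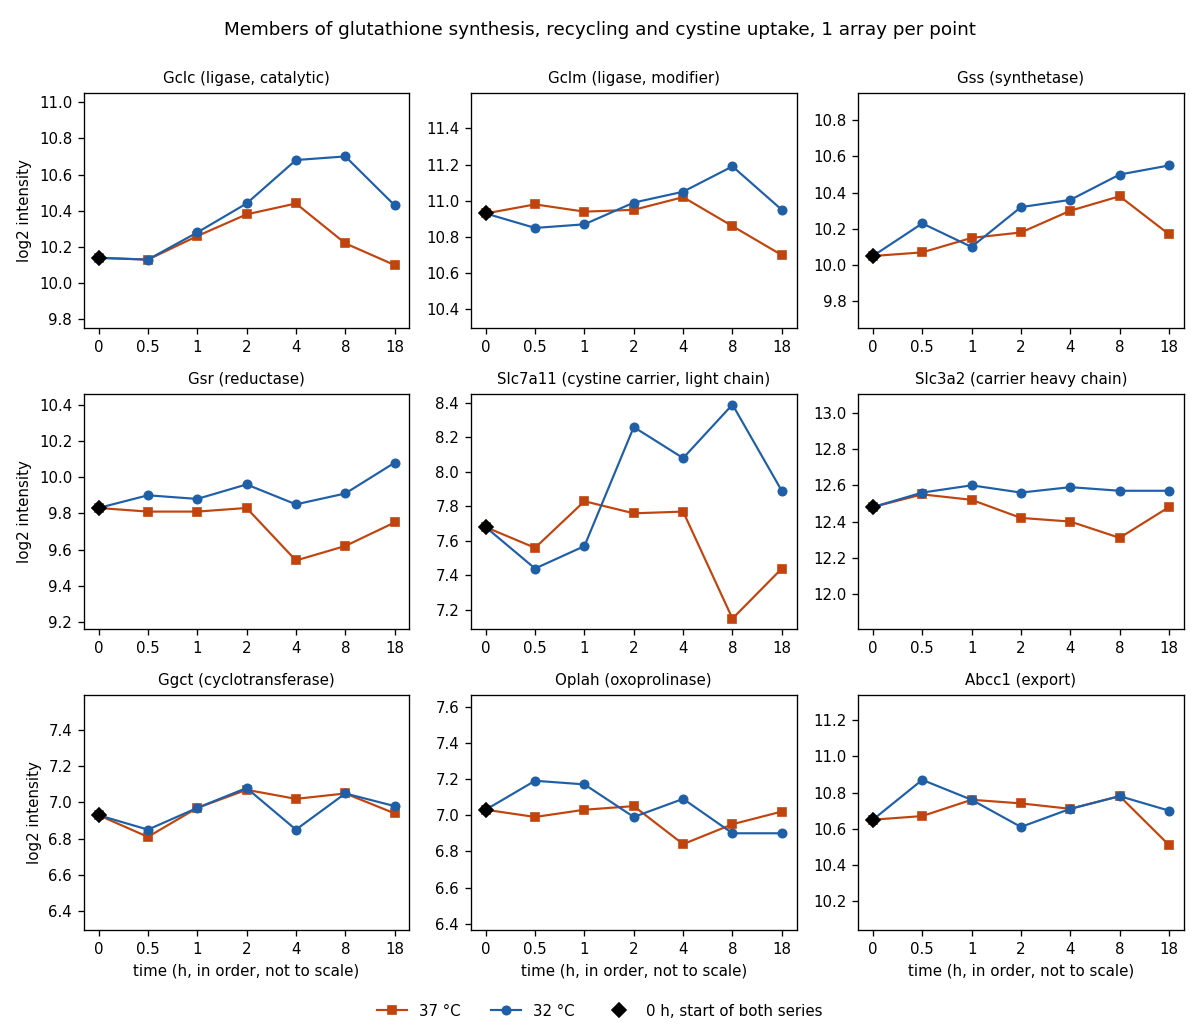
Log2 intensity of the 9 members (vertical axis) at 0, 0.5, 1, 2, 4, 8 and 18 h in order (horizontal axis), with 1 array per point, squares for 37°C, circles for 32°C and a diamond for the shared array at 0 h. Each panel has its own range of values; Gclc and Gsr separate from 4 h on, Slc7a11 from 2 h on, and the lines of Ggct, Oplah and Abcc1 cross.

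Taken time by time, the members' differences between temperatures were larger after 2 h. Their median difference was 0.04 at 0.5 h, 0.00 at 1 h and 0.06 at 2 h, and it was 0.20 at 4 h, 0.26 at 8 h and 0.25 at 18 h. The median over all genes at these times stayed between -0.0016 and 0.029. The number of members that were higher at 32°C was 6, 5, 7, 7, 7 and 8 of 9 at 0.5, 1, 2, 4, 8 and 18 h, against 58.4%, 49.2%, 51.7%, 48.1%, 47.5% and 54.6% of all genes. These counts include differences that round to 0.00, those of Ggct at 1 and 2 h and of Abcc1 at 8 h. The shares of all genes were counted in the same way. In all 3 of the late pairs 6 of 9 were higher, the 3 genes of synthesis, the reductase and both chains of the cystine carrier, against 20.0% of all genes.

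The late difference over 4, 8 and 18 h passed for Gclc (0.35, SE 0.065, limma adjusted p = 0.0313) and Gsr (0.31, SE 0.057, limma adjusted p = 0.0307), 2 of 9 members against 0.802% of all genes. At an unadjusted p under 0.05, 6 of 9 were higher, against 7.62% of all genes. Without the 1 h arrays, or without those of 8 or 18 h, 0 members passed, and without 4 h Gclc passed alone. Slc7a11 had the largest late difference and an adjusted p of 0.0821. Over all 6 pairs, 0 of 9 members passed in either direction, as did 0.0702% of all genes, and 5 of 9 (Gclc, Gss, Gsr, Slc7a11 and Slc3a2) were higher at an unadjusted p under 0.05, against 7.13%. The largest of these mean differences were 0.36 for Slc7a11 (SE 0.16, limma adjusted p = 0.365) and 0.20 for Gsr (SE 0.052, limma adjusted p = 0.152). Higher in 6 of 6 pairs were 2 of 9 members, Gsr and Slc3a2, against 4.79% of all genes, and the same members had all 6 arrays at 32°C above all 6 at 37°C, against 0.863%. The margins were narrow: the lowest array at 32°C and the highest at 37°C were 9.85 and 9.83 for Gsr and 12.56 and 12.55 for Slc3a2. At 0.5 h Slc3a2 differed by only 0.01. The late difference, the difference over all pairs and the divergence use the same arrays and are not independent of each other.

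**Figure D2:**
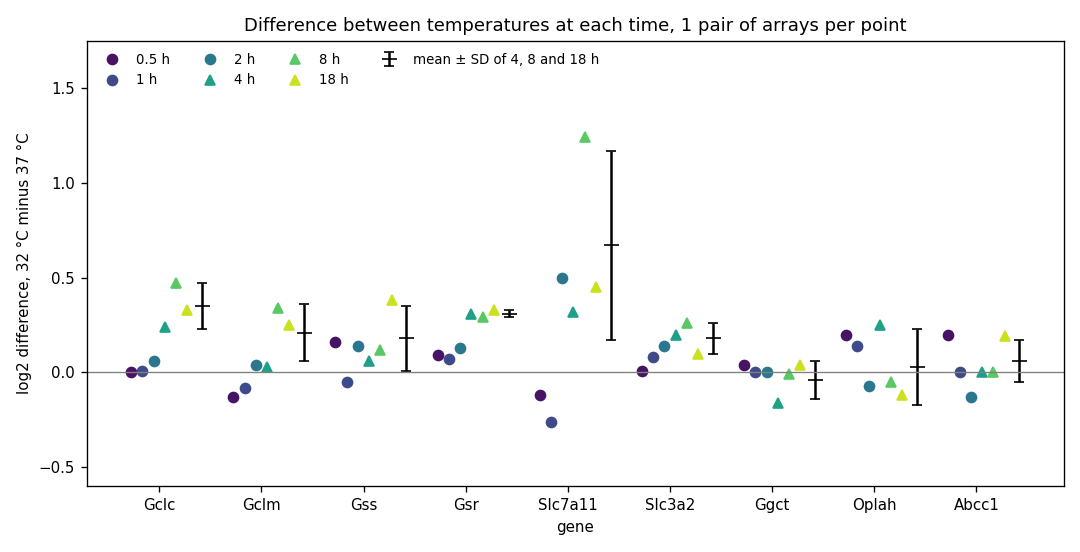
Log2 difference of 32°C minus 37°C (vertical axis) for each member (horizontal axis), with 1 pair of arrays per point, circles for 0.5 to 2 h, triangles for 4 to 18 h, and the mean ± SD of the 3 late pairs in black. The 3 late points of Gsr lie within 0.29 and 0.33, those of Slc7a11 spread from 0.32 to 1.24, and those of Ggct, Oplah and Abcc1 lie between -0.16 and 0.25.

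Within each temperature, no member's slope passed. At 32°C 0 of 9 passed in either direction, as did 0.0953% of all genes, and 3 of 9 (Gclc, Gss and Slc7a11) had a rising slope at an unadjusted p under 0.05, against 7.14% of all genes. The slopes of Gclc and Slc7a11 were 0.086 (SE 0.025, limma adjusted p = 0.136) and 0.11 (SE 0.042, limma adjusted p = 0.242). At 37°C 0 of 9 passed, as did 0.0% of all genes, and Gss alone, 1 of 9, had a rising slope at an unadjusted p under 0.05, against 3.62%. By Kendall's tau at an exact 1-sided p under 0.05, 2 of 9 members had a rising course at 32°C, Gss and Gclc (tau 0.62, exact p = 0.0345), against 8.91% of all genes, and 1 of 9 had a falling one, Oplah (tau -0.62, exact p = 0.0345), against 8.47%. At 37°C 1 of 9 had a rising course, Gss, against 5.05%. No member passed after adjustment of the 2-sided exact p over all genes. With 7 arrays that exact p cannot fall below 3.97e-04, and the study's probe-level test was not repeated here. The slopes of both temperatures share the array at 0 h. The median slope of the members was 0.027 at 32°C and -0.011 at 37°C, and the medians of all genes were 0.0047 and 0.0022.

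Over the 13 arrays the members' courses were alike in part, which is given as a description, since the points share arrays and time. Pearson's r was 0.82 between Gclc and Slc7a11, 0.81 between Gclc and Gclm, 0.79 between Gclm and Slc7a11 and 0.77 between Gsr and Slc3a2, while that of both chains of the cystine carrier was 0.53. Oplah ran opposite to Gss, with r = -0.54. Of the genes above the median signal, those most like Gclc were Zfp28 (r = 0.96) and Chst11 (0.95), those most like Slc7a11 were Tac1 (0.97) and Hspa9 (0.94), those most like Gss were Fez2 (0.97) and Creb3 (0.96), and those most like Gsr were Fez1 (0.95) and Ccdc122 (0.93). For Gclm they were Mak16 (0.90) and Slc66a2 (0.89), for Slc3a2 Ptgfr and Calml4 (0.90 each), for Ggct Atxn3 (0.85) and Plcxd2 (0.84), for Oplah Spg7 (0.90) and Vars2 (0.89) and for Abcc1 Clptm1 (0.84) and Lamc1 (0.83).

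Around these members, Chac1 was the one gene of glutathione breakdown that diverged, upward, among 11 measured of 12 in a list that also holds gamma-glutamyl transferases and dipeptidases (1 of 11, against 1.17% of all genes). Chac1 stood at 9.30 at 0 h and, at 32°C, at 9.64, 9.71, 9.51, 9.42, 9.69 and 9.82 from 0.5 to 18 h. At 37°C it stood at 9.61, 9.36, 8.66, 9.01, 9.08 and 9.49. It was higher at 32°C in 6 of 6 pairs, most at 2 h (0.85), and its divergence was 0.11 per time point (SE 0.023, limma adjusted p = 0.0346). That call was lost without the time points 0.5, 4 or 8 h (adjusted p = 0.0591, 0.0873 and 0.150), on relative ranks (0.0813), with time as log2(1 + hours) (0.0539) and with a separate level term for 32°C (0.696), where the value was 0.052. Dpep2, a dipeptidase, had the next largest value, 0.095 (SE 0.025, limma adjusted p = 0.0722), at a mean signal of 5.76 under the median of all transcript clusters.

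None of 6 measured genes of transsulfuration, the methionine cycle and cysteine breakdown passed in any comparison. Their largest divergences were 0.042 for Mat2b, a regulatory subunit of methionine adenosyltransferase (SE 0.014, limma adjusted p = 0.136), and -0.030 for Cth, which splits cystathionine to cysteine (SE 0.019, limma adjusted p = 0.456). None of 11 other light chains of Slc3a2 and carriers of cysteine or glutamate passed, led by Slc7a5, a carrier of large neutral amino acids that also pairs with Slc3a2 (0.053, SE 0.015, limma adjusted p = 0.0855), and Slc1a5, a glutamine carrier (0.036, SE 0.012, limma adjusted p = 0.145). None of 5 glutaredoxins passed, with Glrx2 at 0.033 and Glrx5 at 0.030, both mitochondrial. None of 5 measured genes of glutamate supply and use passed, where Glul, glutamine synthetase, had 0.051 (limma adjusted p = 0.0542) and Asns, asparagine synthetase, 0.045 (limma adjusted p = 0.0526). Among 8 carriers of glutathione in membranes, Abcc5, an exporter related to Abcc1, was lower at 32°C over 4, 8 and 18 h (mean log2 difference -0.31, SD 0.05, n = 3 pairs, 0.809-fold, limma adjusted p = 0.0473). This was 1 of 8 lower, against 2.15% of all genes, and the call held in 4 of 13 alternatives. The divergence of Abcc5 was -0.054 (SE 0.013, limma adjusted p = 0.0526), which did not pass, and the next largest in the list, that of Abcc3, was 0.021 (limma adjusted p = 0.455).

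The transcripts of the regulators themselves did not pass. Of 11 measured, 0 diverged in either direction, while of all 19938 genes 234 passed upward and 331 downward. At shares this small a count of 0 of 11 says little about the regulators. At an unadjusted limma p under 0.05, 3 of 11 were upward, against 8.52% of all genes, and 0 downward, against 9.9%. Nfe2l2, which encodes NRF2, lay between 11.83 and 11.96 at 32°C and between 11.96 and 12.04 at 37°C from 0.5 h on, lower when cold in 6 of 6 pairs (divergence -0.022, SE 0.011, limma adjusted p = 0.328). Atf4 lay between 9.40 and 9.56 at 32°C and between 9.26 and 9.53 at 37°C and was higher when cold in 6 of 6 pairs (0.032, SE 0.011, limma adjusted p = 0.136). The largest divergences were those of Atf3 (0.082, SE 0.039, limma adjusted p = 0.295), and Trib3 (0.052, SE 0.016, limma adjusted p = 0.107). Atf3 stood at 7.64 at 0 h, at 8.90, 9.47, 9.12, 8.06, 7.74 and 7.88 from 0.5 to 18 h at 32°C and at 9.33, 8.95, 7.97, 7.65, 7.67 and 7.64 at 37°C, so it was lower when cold at 0.5 h and higher at the 5 later times, most at 2 h (1.16). These are transcripts, and the proteins were not measured.

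Of 15 measured NRF2 targets outside the pathway, 6 diverged upward and 0 downward, against 1.17% of all genes upward, and 9 of 15 were upward at an unadjusted p under 0.05, against 8.52%. The study had named Nqo1, Srxn1, Txnrd1 and Txnrd3 from these arrays, so that count is not independent evidence. Quantitative PCR by the study covered Nqo1, Srxn1 and Txnrd1, and those values were not part of the data used here. Nqo1, a quinone reductase, climbed at 32°C from 9.65 at 0 h to 11.25 at 18 h, with a divergence of 0.19 (SE 0.028, limma adjusted p = 0.0148), 2.02-fold over 4, 8 and 18 h. Srxn1, which repairs overoxidized peroxiredoxins, had 0.11 (SE 0.013, adjusted p = 0.00561), and the thioredoxin reductases Txnrd1 and Txnrd3 had 0.081 and 0.082 (adjusted p = 0.0184 and 0.0153). Gsta4, a glutathione transferase that acts on lipid aldehydes, had 0.072 (adjusted p = 0.0148), and Pgd, an enzyme of the pentose phosphate pathway that yields the NADPH that Gsr uses, 0.051 (adjusted p = 0.0465). With a separate level term for 32°C 0 of these 6 passed (adjusted p = 0.128 to 0.324), without 8 h and without 18 h Srxn1 passed alone, and without 4 h Nqo1, Srxn1 and Gsta4 passed. The divergences of Gclc and Gsr, 0.061 and 0.058, lay between those of Gsta4 and Pgd. Gstm1, Me1, Ftl1, Fth1 and Osgin1, further genes of the list, had divergences between -0.014 and 3.4e-04 and did not pass. Hmox1, Tkt, Taldo1 and Gpx2 did not pass either. Their mean log2 differences over 4, 8 and 18 h were 0.27, 0.20, 0.13 and 0.13 (SD 0.08, 0.06, 0.08 and 0.18, n = 3 pairs each). They were higher at 32°C in 4, 6, 6 and 5 of 6 pairs.

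**Figure D3:**
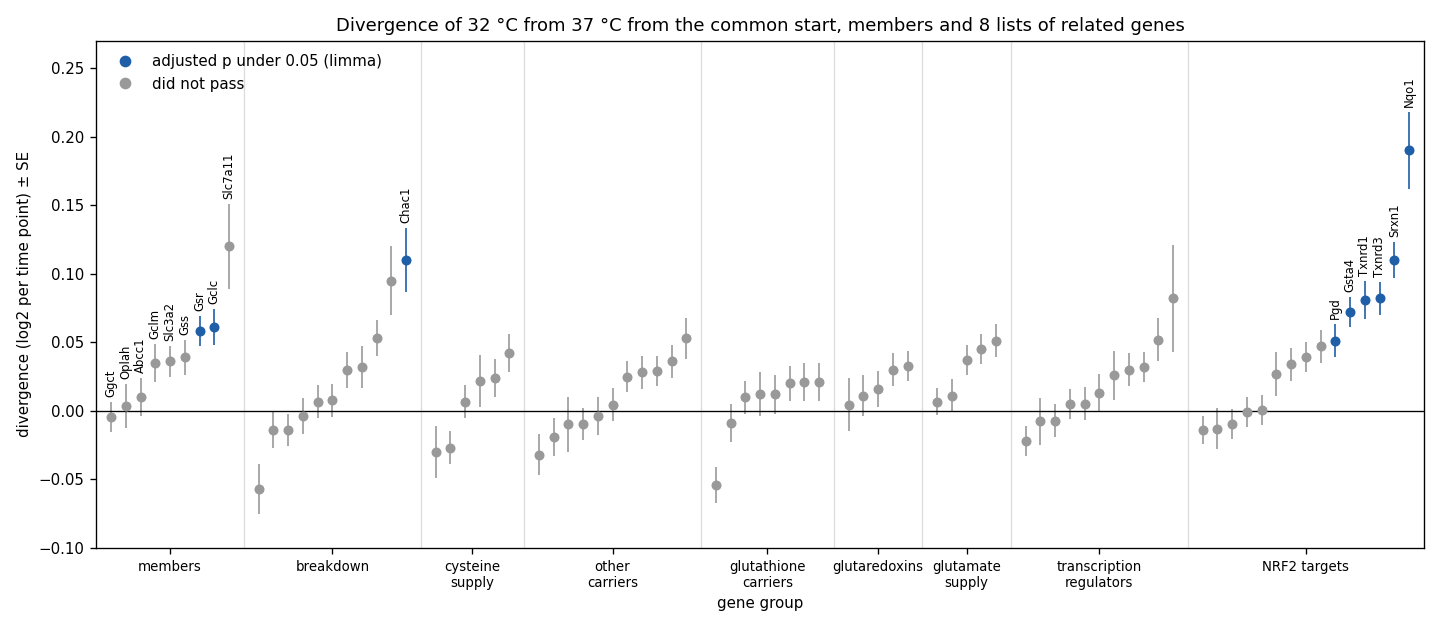
Divergence of 32°C from 37°C in log2 per time point ± SE (vertical axis) for the 9 members and the measured genes of 8 lists of related genes (horizontal axis), in blue where the limma adjusted p was under 0.05 and in grey otherwise. Blue points are Gclc and Gsr among the members, Chac1 in breakdown and 6 NRF2 targets up to Nqo1 at 0.19; the other 6 lists hold none.

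**Figure D4:**
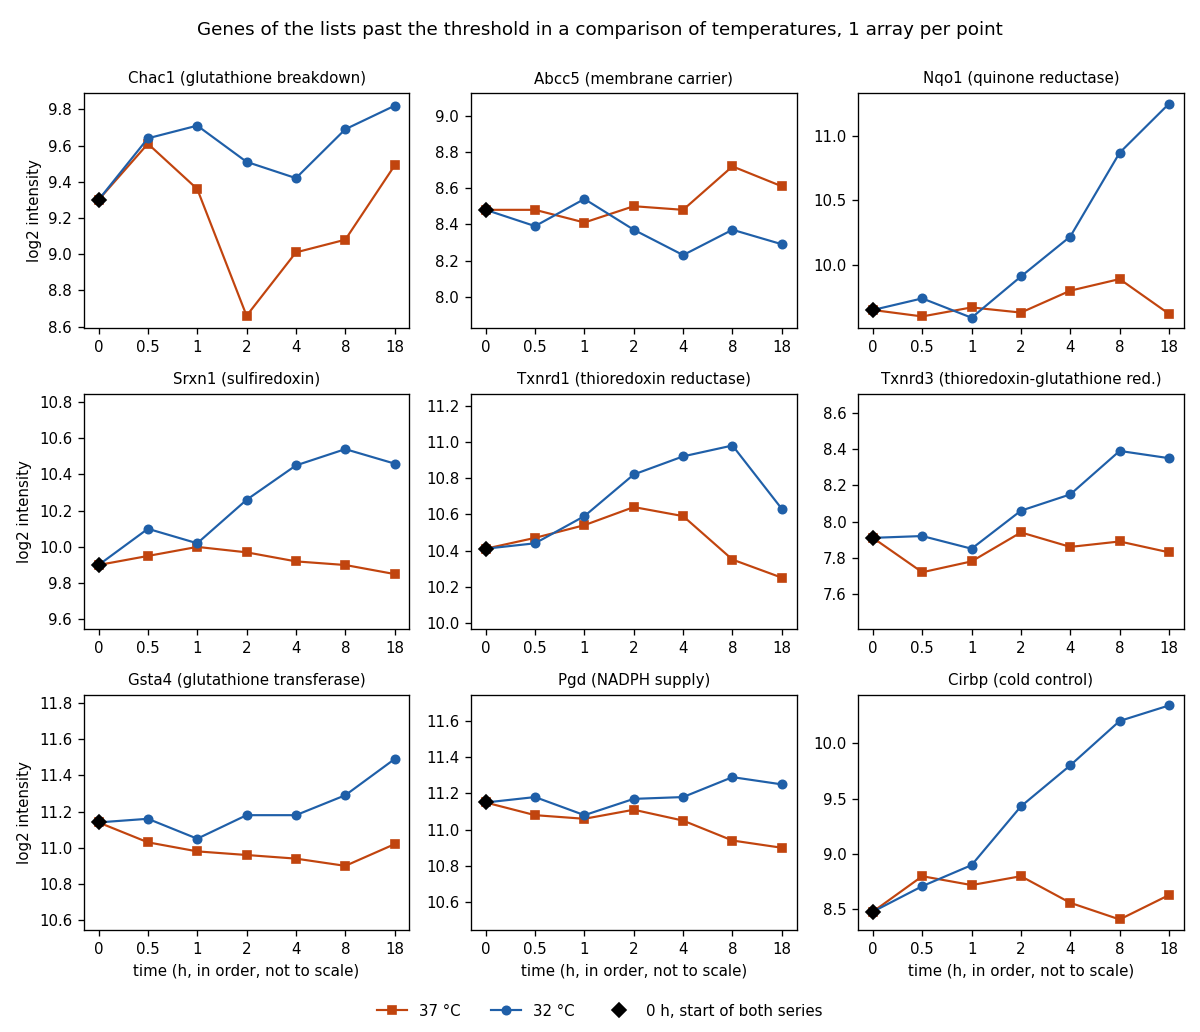
Log2 intensity (vertical axis) against time in order (horizontal axis) for the 8 related genes past the threshold in a comparison of temperatures and for Cirbp, with 1 array per point and symbols for 37°C (squares), 32°C (circles) and the shared 0 h array (diamond). Panels have their own ranges; Chac1 dips to 8.66 at 2 h at 37°C, Nqo1 and Cirbp climb at 32°C, and Abcc5 ends lower at 32°C.

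Signals of other cell types and of division were set beside these results. The mean of 6 markers of dividing cells lay between 10.11 and 10.81 at 32°C and between 10.52 and 10.88 at 37°C, and at 18 h it was 10.11 against 10.88; 0 of 6 diverged at the adjusted threshold and 2 of 6 were downward at an unadjusted p under 0.05, against 9.9% of all genes. The mean of 10 fibroblast markers lay between 11.88 and 12.07 at 32°C and between 11.98 and 12.03 at 37°C, with 0 of 10 past the threshold and 3 of 10 (Pdgfrb, Col1a1 and Col1a2, with divergences of -0.054, -0.046 and -0.031) downward at an unadjusted p under 0.05, against the same 9.9% of all genes. That of 7 macrophage markers lay between 5.80 and 5.94 at 32°C and between 5.77 and 5.91 at 37°C, and that of 6 endothelial markers between 6.29 and 6.41 and between 6.29 and 6.38, with 0 past the threshold in either list. The means of epithelial, skeletal muscle, neural and erythroid markers lay at 6.62 to 6.93, 7.14 to 7.26, 6.96 to 7.20 and 4.98 to 5.48 at 32°C and at 6.58 to 6.73, 7.14 to 7.22, 7.13 to 7.20 and 5.14 to 5.37 at 37°C, again with 0 past the threshold. The neural mean was lowest at 18 h at 32°C, and in the divergence 2 of 5 neural markers were downward at an unadjusted p under 0.05, against 9.9% of all genes. The part of the lower division, fibroblast and neural markers in the members' differences was not tested.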

How the data were processed

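RNA of primary mouse embryonic fibroblasts, 3 dishes pooled per array, was hybridized to Affymetrix Mouse Gene 1.0 ST arrays. The authors deposited 1 intensity per transcript cluster and array on a linear scale. The sources used here do not state how probes were summarized and normalized. Precision is limited by the number of arrays, 13. Groups, temperatures and times come from the labels.

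Of 28853 transcript clusters, 21789 carried 1 gene symbol in the annotation used (1621 carried several and were left out), and 21698 of these matched by Entrez identifier. The brightest cluster was used for each of 19938 genes; each member has 1 cluster. Deposited values went into log2 with no further scaling and no filter. The comparisons used limma 3.58.1 (R 4.3.3; functions lmFit and eBayes) over all genes, with a 2-sided Benjamini-Hochberg adjusted p under 0.05: slopes on time order from 0 to 6 at each temperature, the divergence, the difference over 6 pairs and the difference over 3 late pairs, each with time as a block. Kendall's tau was enumerated exactly (Python 3.11.15). The fits were tested on simulated data. Figures were drawn with matplotlib 3.10.9.

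The members, the lists of related genes, the markers and the tests were chosen with earlier results of these data known. Named are all members, related genes past the threshold in any limma comparison or with the 2 largest absolute divergences in their list, and the 2 genes most like each member. Alternatives were quantile normalization, relative ranks, an offset of 16, genes above the median signal, the mean over clusters, an intensity trend, time as log2(1 + hours), a separate term for 32°C, the 6 late arrays alone and each time point left out. List members without a cluster of their own in the test are not reported here, and counts are over the measured members.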

Additional observations from a re-analysis of the deposited data

Results flagged for a closer look

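In 10 of the named genes the courses at 32°C and 37°C differed by a direct test, the divergence from the common start (limma, adjusted over all genes). The divergence in log2 per time point was 0.061 for Gclc and 0.058 for Gsr among the members. It was 0.11 for Chac1 and, among the NRF2 targets, 0.19 for Nqo1, 0.11 for Srxn1, 0.081 for Txnrd1, 0.082 for Txnrd3, 0.072 for Gsta4 and 0.051 for Pgd. For the cold control Cirbp it was 0.29. With a separate level term for 32°C Cirbp alone of these 10 passed (adjusted p = 0.0365), and 3 of all genes passed upward in place of 234.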

How the results depend on the processing

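With 1 array per time and temperature, the calls rest on few arrays. The number of members that diverged upward, 2, was 4 with an intensity trend in the prior (with Slc7a11 and Slc3a2), 1 with relative ranks, 0 with a separate term for 32°C and 0 to 3 when each time point was left out in turn. The number higher in the late difference, 2, was 0 with relative ranks, 0 with the 6 late arrays alone and 0 to 2 with each time point left out. The number rising at 32°C, 0, was 1 (Gss) with genes above the median signal and 1 with log2(1 + hours). Over all genes the upward calls in the divergence fell alike, from 234 to 107 with relative ranks, 3 with a separate term and 16 to 223 with each time point left out. Those in the late difference fell from 160 to 0, 2 and 0 to 135 with relative ranks, the late arrays alone and each time point left out. In the divergence they rose to 299 with quantile normalization, 309 with the offset of 16 and 343 with an intensity trend. With genes above the median signal they were 343 of 10866. Rising slopes at 32°C over all genes went from 9 to 60 of 10866 with genes above the median signal and to 90 with log2(1 + hours). Lost and gained calls thus say little about the members. By Kendall's tau under quantile normalization 4 members rose at 32°C in place of 2 and 0 fell in place of 1. The share of all genes at that setting is not given here, so these counts are not a result about the members.

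Of 124 single values of members in the divergence, 106 kept their sign and side of the threshold, 10 no longer passed, 4 newly passed and 4 changed sign. Part of this was fixed in advance, since each member has 1 cluster and the mean over clusters left its values unchanged. An intensity trend, or leaving out genes under the median signal, changes no fitted difference, so no sign could change there. Signs changed in 13 values over all comparisons, none of them past the threshold. With each time point left out in turn, the slope of Abcc1 lay between -0.0205 and 0.0103 at 32°C and between -0.0221 and 0.0209 at 37°C, and that of Gclc at 37°C between -0.0063 and 0.0421 (-2.5e-04 with log2(1 + hours)). The divergence lay between -0.0113 and 0.0033 for Ggct, -0.0094 and 0.0187 for Oplah (-0.0519 with a separate term) and -0.0033 and 0.016 for Abcc1. The difference of Ggct lay between -0.025 and 0.0161 over all pairs and between -0.0838 and 0.0159 late, and that of Oplah between -0.0847 and 0.101 late. The cause of these changes was not tested.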
